A study of Gallus gallus with 2 samples.

Results

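The contacts described here are those between microchromosomes and other chromosomes in the nuclei of chick limb bud cells. They were read pairs whose mates lay on different chromosomes, with at least 1 mate on chr11 to chr28 or on chr30 to chr33 and both mapping qualities at 30 or more. Pairs with a mate on chr7, chrM, chrW or a contig outside the numbered chromosomes and chrZ were left out. The rule took 22 of the 32 chromosomes kept as microchromosomes, and 451 of the 496 possible chromosome combinations hold at least 1 of them. They held 3705424 of 8027275 pairs between kept chromosomes in the hindlimb library (46.2%) and 3179870 of 6974572 in the forelimb library (45.6%).

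The study compared the regulation of the HoxD gene cluster in embryonic limbs. For capture Hi-C (CHi-C), in which crosslinked and digested chromatin is ligated, sequenced from both ends and enriched with probes, it had 1 library of whole hindlimb buds and 1 of whole forelimb buds. Both came from wild type White Leghorn embryos at Hamburger-Hamilton stage 20 (HH20), with limb pairs of several embryos pooled. The probes covered a part of chr7 around HoxD, which is why chr7 was left out. The pairs counted for the ratios below are thus pairs that the probes did not target on either side.

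The chicken karyotype has a few large macrochromosomes, some of intermediate size and many microchromosomes. Microchromosomes are known for a high density of genes, a high GC content and early replication, and in the nuclei of birds they have been seen by microscopy to lie mostly in the interior, with the macrochromosomes nearer the periphery. In Hi-C, fragments that lie close in the nucleus are ligated more often, so the pairs between chromosomes show which chromosomes are neighbours on average over the cells of a bud. The same count can come from a few cells with close contacts or from many with loose ones, and random ligation of unconnected fragments adds pairs without any preference. Its share among these pairs is unknown, and the ratios below are not corrected for it.

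The hindlimb library held 39556492 valid pairs and the forelimb library 35552269, of which 35045660 and 31468978 had both mapping qualities at 30 or more. In both libraries 33.4% of those joined different chromosomes, with partners on chr7 and on contigs counted. Of these pairs, 68.5% in the hindlimb and 66.3% in the forelimb library were kept for the ratios. The share of a chromosome's pairs that left it was also taken with any partner, chr7 and contigs included. For microchromosomes this share had a median of 63.7% in the hindlimb and 64.0% in the forelimb library. These medians are over the 20 microchromosomes with at least 1000 ends in kept pairs. For chr6 and chr8 to chr10 the medians were 60.5% and 61.3%, and for chr1 to chr5 they were 48.8% and 49.3%. With 1 library per limb bud there is no check by replicates. All intervals below are exact 95% intervals for counting error only, and differences between the libraries compare 2 libraries, not limb types.

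Observed pairs were compared with an expectation proportional to the product of both chromosomes' totals of ends between chromosomes, scaled to all kept pairs. Because a chromosome cannot pair with itself in this count, the product gives values other than 1 even without any preference: a matrix with these totals and no preference would have a ratio of 0.885 in the hindlimb and 0.883 in the forelimb library for microchromosomes with each other. The same quantity would be 0.900 and 0.899 for microchromosomes with chr6 and chr8 to chr10, and 0.989 and 0.988 for microchromosomes with chr1 to chr5. A second expectation was therefore fitted so that every chromosome keeps its own total, and its values are given as fitted ratios.

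Microchromosomes were paired with each other more often than expected, and with the large chromosomes less often. Between microchromosomes 698135 pairs were observed in the hindlimb library, against 605698 expected, a ratio of 1.15 (1.150 to 1.155). In the forelimb library 600030 were observed and 513828 expected, a ratio of 1.17 (1.165 to 1.171). The fitted ratios were 1.30 and 1.32, so the excess was larger once the totals were kept.

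With chr1 to chr5, the macrochromosomes, the microchromosomes had 2163690 pairs in the hindlimb library where 2479620 were expected, a ratio of 0.873 (0.871 to 0.874). The forelimb library had 1851877 pairs for an expectation of 2140220, a ratio of 0.865 (0.864 to 0.867). Fitted ratios were 0.883 and 0.876. Microchromosomes thus met each other 1.32 times as often, relative to expectation, as they met chr1 to chr5 in the hindlimb library (1.317 to 1.324) and 1.35 times in the forelimb library (1.346 to 1.354). The fit put this at 1.48 and 1.51.

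The chromosomes of intermediate size stood between these classes. For microchromosomes with chr6 and chr8 to chr10 the ratio was 0.904 (603885 pairs) in the hindlimb and 0.909 (520373 pairs) in the forelimb library, which is below 1, but the fitted ratios were 1.004 (1.002 to 1.007) and 1.011 (1.008 to 1.014). The side of 1 on which this class falls thus depended on the expectation, and the place of the pooled class between the other classes did not. Of the 20 microchromosomes with at least 1000 ends, 16 in the hindlimb and 18 in the forelimb library met it above chr1 to chr5 by the product. By the fit all 20 did in both libraries. ChrZ, the sex chromosome that males carry as a pair, had the lowest ratio of any single partner outside the microchromosomes by the product, at 0.798 in the hindlimb and 0.791 in the forelimb library. By the fit it had 0.861 and 0.854, and chr3 was lower at 0.854 and 0.845. For reference, chr1 to chr5 met each other at 1.17 in both libraries, or at 1.06 and 1.07 by the fit.

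**Figure D1:**
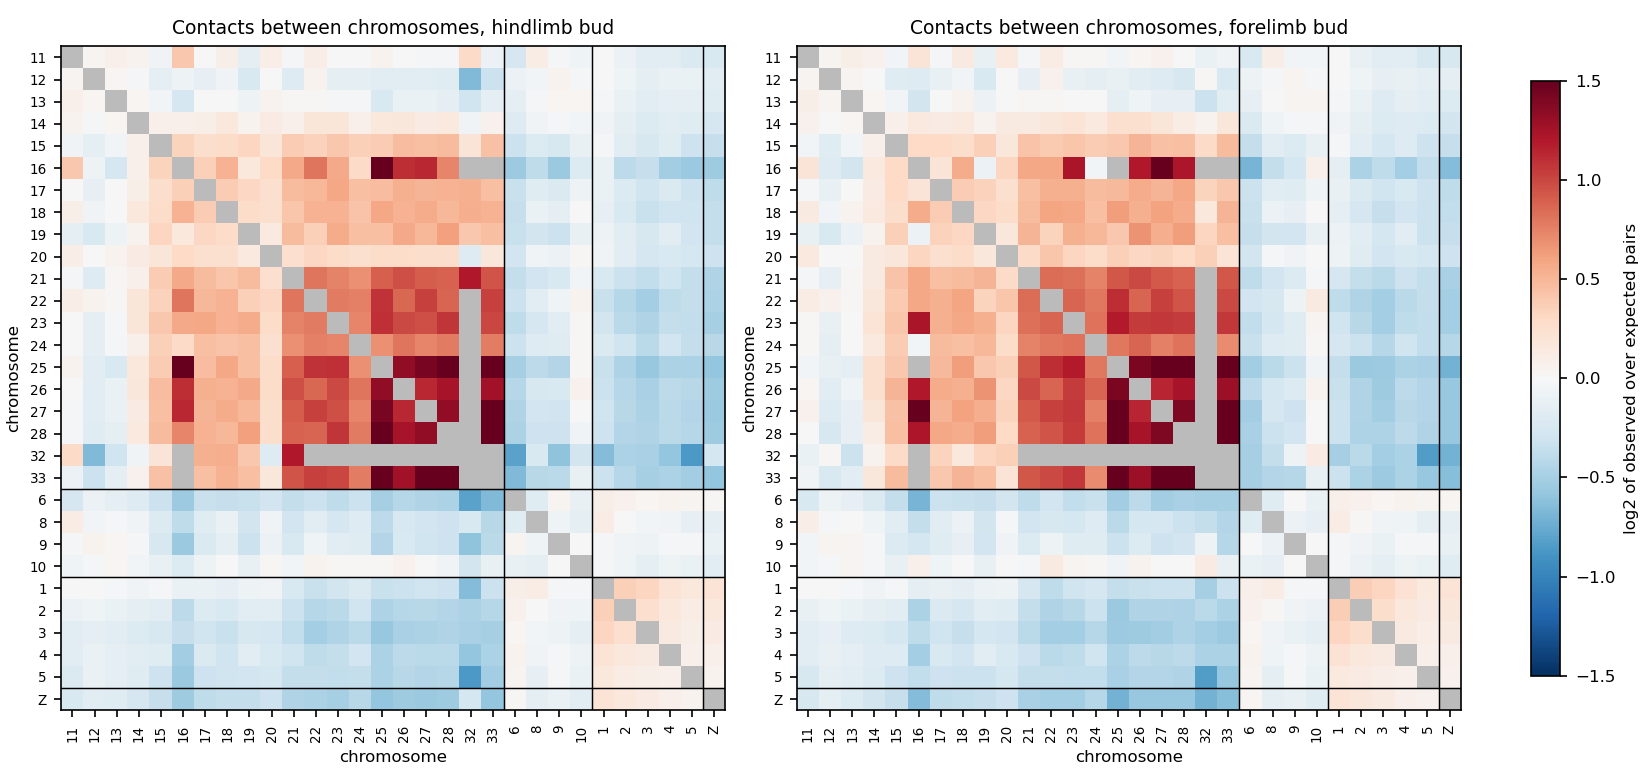
Each cell gives the log2 of observed over expected pairs (product of totals) for 2 chromosomes, with the hindlimb bud library on the left and the forelimb bud library on the right. Lines separate microchromosomes, chr6 and chr8 to chr10, chr1 to chr5, and chrZ. Grey cells are the diagonal or have an expectation under 20, and chr30 and chr31 are not drawn. The red block of chr21 to chr28 and chr33 stands out in both libraries.

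The matrix of chromosomes showed that the excess was not spread evenly over the microchromosomes. Of 231 combinations of microchromosomes, 178 had an expectation of at least 20 pairs in each library. The other 53 all hold chr16, chr30, chr31 or chr32, of which little sequence is in the assembly, and add up to 705 pairs in the hindlimb and 558 in the forelimb library. Over the 178, the ratio in the hindlimb library had its lowest value at 0.634, its median at 1.23 and its highest value at 3.82, with 143 above 1. The forelimb values were 0.798, 1.247 and 3.83, with 144 above 1. Both libraries ordered the combinations alike, with a Spearman correlation of 0.964 across the 178 combinations, which share chromosomes and, within a library, the totals behind the expectation.

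At 1.5-fold or more in both libraries stood 40 combinations of microchromosomes of 178 tested, or 22.5%. Over all 429 combinations tested, microchromosomes or not, 9.32% were at this fold, and the 40 were all of them. With the fitted expectation 74 combinations of microchromosomes passed, against 17.2% of all combinations. In the other direction, at 1.5-fold or more below the expectation in both libraries, there were 2 combinations, both with a microchromosome and another chromosome, or 0.466% of all tested, and the fit gave the same share of 0.466%. One was chr32 with chr5, with 60 pairs in the hindlimb library for 109 expected and 51 in the forelimb library for 91.5 expected. The other was chr30 with chrZ, at 10 pairs for 29.4 expected and 17 pairs for 28.7 expected, so both rested on few pairs.

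The combinations with the highest ratios joined chr25 to chr28 and chr33, which are all among the shortest chromosomes of the assembly. Chr25 with chr33 led in both libraries, with 463 pairs in the hindlimb library for 121 expected, a ratio of 3.82 (3.48 to 4.18), and with 390 pairs for 102 expected in the forelimb library, a ratio of 3.83 (3.46 to 4.23). Chr27 with chr33 followed with 1050 hindlimb pairs (ratio 3.36) and 964 forelimb pairs (ratio 3.67). Chr28 with chr33 had 978 hindlimb pairs (3.08) and 866 forelimb pairs (3.23).

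The next 4 of the 10 highest all were between 2.5 and 3.1 times the expectation. Chr25 with chr28 had a ratio of 2.84 in the hindlimb and 3.03 in the forelimb library, and chr25 with chr27 had 2.69 and 3.05. Chr25 with chr26 stood at 2.52 and 2.67, and chr27 with chr28, with 2788 and 2466 pairs, at 2.52 and 2.65. The last of the 10 were chr26 with chr33 (2.40 and 2.44), chr26 with chr28 (2.36 and 2.35) and chr26 with chr27 (2.193 and 2.202). All 10 combinations of these 5 chromosomes were thus the 10 highest among the 166 combinations of microchromosomes with an expectation of at least 50 in each library.

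These pairs were spread along the chromosomes. Of the 463 hindlimb pairs between chr25 and chr33, all 463 were distinct pairs of restriction fragments, as were all 390 forelimb pairs. This is not particular to them, since only 0.0139% of all kept hindlimb pairs and 0.0165% of the forelimb ones repeated a pair of fragments. Copies of the same ligation product had been removed beforehand, so the distinct fragments say little about such repeats. The fullest combination of 100-kb bins held 1.08% of the pairs between chr25 and chr33 in the hindlimb and 1.28% in the forelimb library. Among the 10 highest combinations this share was largest for chr27 with chr33, at 1.14% in the hindlimb and 2.07% in the forelimb library.

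Of 166 combinations expected at 50 or more in each library, the 5 lowest each joined chr12 or chr13 to a shorter microchromosome. Chr12 took part in 4 of the 5. Chr12 with chr19 had 7192 hindlimb pairs for 8458 expected (ratio 0.850) and 6159 forelimb pairs for 7233 expected (0.851). Chr12 with chr33 stood at 0.797 and 0.851, with chr28 at 0.879 and 0.845, and with chr27 at 0.889 and 0.872. The fifth, chr13 with chr16, was at 0.840 (159 pairs) and 0.827 (129 pairs). By the fit these 5 combinations lay closer to 1, from 0.909 to 1.007 in the hindlimb and from 0.946 to 0.990 in the forelimb library. With fewer pairs expected, chr12 with chr32 was at 0.634 in the hindlimb library, and chr13 with chr32 at 0.813 and 0.798. The low value of chr12 with chr32 was not repeated in the forelimb library, where no tested partner of chr12 was below 0.845. Chr12 was above 1 by the product with only 3 of its 19 tested partners in the hindlimb and 5 of 19 in the forelimb library. Without preference the product gives 0.885 and 0.883 for this class, so a value below 1 is not by itself a deficit.

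Taken chromosome by chromosome, the ratio with other microchromosomes fell with increasing length. The longest are described first. Chr11, chr12 and chr13, whose last fragment with a pair lies at 20.2, 19.9 and 18.4 Mb, had product ratios close to 1, above the value that the product gives without preference. Chr11 stood at 1.01 in the hindlimb (115526 pairs) and 1.03 in the forelimb library (100156 pairs), and chr12 at 0.948 (110742 pairs) and 0.953 (95221 pairs), the lowest of all. Chr13 was at 0.997 and 1.00, and the fitted ratios of the 3 were above 1, between 1.06 and 1.16.

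Their ratios with chr1 to chr5 were the highest of any microchromosome. Chr12 had 0.954 in the hindlimb and 0.949 in the forelimb library, chr11 had 0.932 and 0.925, and chr13 had 0.932 and 0.927. For chr12 the value with other microchromosomes was lower than that with chr6 and chr8 to chr10 (0.980 and 0.985), under both expectations, which held for no other of the 20 microchromosomes. By the product the hindlimb value of chr12 with other microchromosomes was also below its value with chr1 to chr5, whereas by the fit it was above it, at 1.06 against 0.958.

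Chr14, chr20 and chr15, at 15.6, 14.1 and 12.8 Mb, came next. With other microchromosomes chr14 had a ratio of 1.06 in the hindlimb and 1.08 in the forelimb library, chr20 had 1.12 and 1.14, and chr15 had 1.14 and 1.15. With chr1 to chr5 they stood at 0.910 and 0.905 (chr14), 0.886 and 0.878 (chr20) and 0.898 and 0.893 (chr15). Chr17, chr18 and chr19, between 9.98 and 11.1 Mb, went on in this direction. Chr17 had 1.19 in both libraries with other microchromosomes, chr18 had 1.1997 and 1.221, and chr19 had 1.15 and 1.17, against 0.867 and 0.862, 0.850 and 0.841, and 0.891 and 0.882 with chr1 to chr5.

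The shortest microchromosomes had the largest excess. Chr21 (6.86 Mb) stood at 1.29 in the hindlimb and 1.32 in the forelimb library with other microchromosomes, and chr24 (6.27 Mb) at 1.26 and 1.29. Chr23 (5.79 Mb) had 1.34 and 1.37, as did chr22 (4.73 Mb). Chr27, chr26 and chr28, at 5.64, 5.30 and 4.97 Mb, had 1.39 and 1.42, 1.38 and 1.42, and 1.40 and 1.41. The intervals of chr26, chr27 and chr28 overlapped in each library, as did those of chr22 and chr23.

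Chr25 (2.91 Mb) had 20806 hindlimb pairs with other microchromosomes, a ratio of 1.44 (1.42 to 1.46), and 18103 forelimb pairs, a ratio of 1.49 (1.46 to 1.51). Chr33 (1.65 Mb) had 1.44 and 1.46. The same 2 chromosomes were among the lowest with chr1 to chr5, at 0.734 and 0.721 for chr25 and 0.742 and 0.731 for chr33. For chr21 to chr24 the ratios with chr1 to chr5 ran between 0.757 and 0.811 in the hindlimb and between 0.747 and 0.799 in the forelimb library, and for chr26 to chr28 between 0.758 and 0.761 and between 0.746 and 0.755.

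Little of chr16 and of chr30 to chr32 is in the assembly, and their values rest on fewer pairs. Chr16, known for the major histocompatibility complex and the nucleolus organizer, ends at 0.652 Mb here and had 2622 hindlimb pairs with other microchromosomes, a ratio of 1.33 (1.28 to 1.38), and 2181 forelimb pairs, a ratio of 1.34 (1.28 to 1.39). This is below the ratio of chr25 and chr33, although the part of chr16 seen is shorter. Chr32 (0.077 Mb) stood at 1.55 (1.44 to 1.67, 739 pairs) and 1.47 (1.35 to 1.59, 578 pairs). Chr30 had 194 and 190 such pairs, with ratios of 1.52 (1.31 to 1.75) and 1.57 (1.35 to 1.81), and chr31 had 1 and 2 pairs, from which no ratio can be read.

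**Figure D2:**
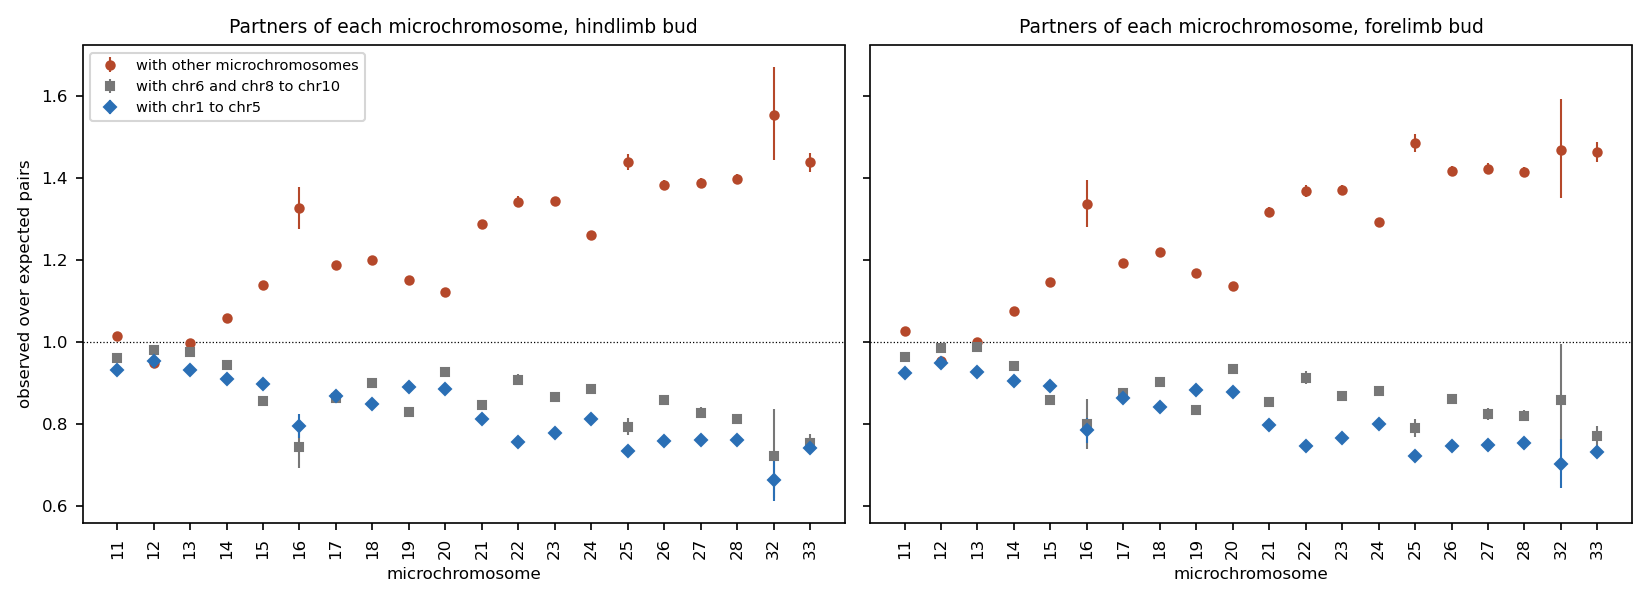
Observed over expected pairs (product of totals) of each microchromosome with other microchromosomes, with chr6 and chr8 to chr10, and with chr1 to chr5, in the hindlimb bud library (left) and the forelimb bud library (right). Bars are exact 95% Poisson intervals of the counts, and chr30 and chr31 are not drawn. Values with chr1 to chr5 are below 1 for all 20 chromosomes, and values with other microchromosomes are highest for chr25, chr32 and chr33.

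Over the 20 microchromosomes with at least 1000 ends, the ratio with other microchromosomes had a median of 1.28 in the hindlimb and 1.31 in the forelimb library and was above 1 in 18 and in 19 of them. By the fit it was above 1 in all 20 in both libraries, with medians of 1.45 and 1.49. The ratio with chr1 to chr5 was below 1 in all 20, with medians of 0.811 and 0.799. The plot of partners by chromosome shows both series drawing apart from chr11 to chr33.

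Chromosome length tracked these values closely. Across the 20 microchromosomes the Spearman correlation of length with the ratio to other microchromosomes was -0.93 in the hindlimb and -0.92 in the forelimb library, and that with the ratio to chr1 to chr5 was 0.94 and 0.93. Both ratios are scaled to the same totals, so a higher ratio with microchromosomes in part imposes a lower one with chr1 to chr5. The correlations with both ratios are thus not separate results. Pearson correlations on the log2 of length were weaker, at -0.79 and -0.71 for other microchromosomes, where chr16 and chr32 lie away from the rest. The mean length of the DpnII fragments correlated less with the ratio to other microchromosomes (Spearman -0.50 and -0.45), and the number of ends per kb hardly (-0.095 and -0.15). These points share 1 library and one another's pairs, and the length used is that of the assembly, which is not the true length of the shortest ones.

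**Figure D3:**
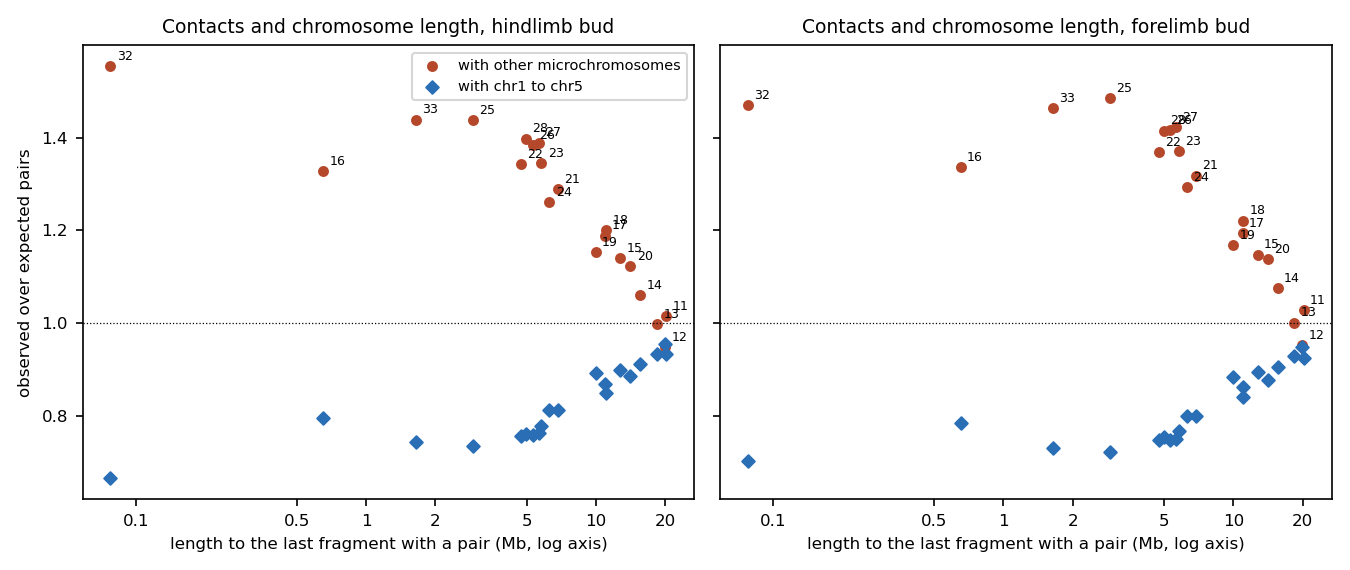
Observed over expected pairs with other microchromosomes (circles, numbered by chromosome) and with chr1 to chr5 (diamonds) against length on a log axis, for the hindlimb bud library (left) and the forelimb bud library (right). With other microchromosomes the values climb from 0.948 and 0.953 at chr12 to 1.44 and 1.49 at chr25 as length decreases. With chr1 to chr5 they decrease over this range. Of the shorter ones, chr33 has 1.44 and 1.46 with other microchromosomes, chr16 has 1.33 and 1.34, and chr32 has 1.55 and 1.47.

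Grouping by length, which was done after the values had been seen, showed where the excess lay. The 13 microchromosomes under 7 Mb had 76586 hindlimb pairs among themselves for 39684 expected, a ratio of 1.93 (1.92 to 1.94), and 66198 forelimb pairs for 33226 expected, a ratio of 1.99 (1.98 to 2.01). Fitted ratios were 2.22 and 2.30. The 6 microchromosomes of 12 Mb or longer met each other at 1.02 and 1.03 (fitted 1.14 and 1.15), and met those under 7 Mb at 1.07 and 1.09 (fitted 1.21 and 1.24).

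The 3 chromosomes of 7 to 12 Mb were intermediate. They met each other at 1.2504 in the hindlimb and 1.269 in the forelimb library and met those under 7 Mb at 1.41 and 1.44. With chr1 to chr5 the order turned round, which the shared totals impose in part. Microchromosomes under 7 Mb stood at 0.777 and 0.766, and those of 7 to 12 Mb at 0.869 and 0.862. Those of 12 Mb or longer were at 0.921 and 0.915. Of the 40 combinations at 1.5-fold or more, 39 joined chromosomes under 7 Mb, of 43 such combinations tested, and 17 of these 39 were at 2-fold or more in both libraries.

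Among the larger partners, chr10 was the one that microchromosomes met most, at 0.983 in the hindlimb (136887 pairs) and 0.989 in the forelimb library (117831 pairs), or 1.10 and 1.11 by the fit. Of the chromosomes of intermediate size, chr8 and chr9 followed at 0.920 and 0.919 in the hindlimb and 0.925 and 0.926 in the forelimb library, without a difference between them beyond the counting intervals. By the product chr1 was above both in the hindlimb library, at 0.932 (0.930 to 0.934). In the forelimb library its interval overlapped theirs, and by the fit chr1 was below both. Chr6, at 0.823 and 0.825, was lower than chr8 to chr10, also by the fit (0.908 and 0.912). Against chr1, chr2 and chr4 its place depended on the expectation. Chr6 was lower than each of them by the product and higher by the fit, where chr1 had 0.895 and 0.887. Against chr3 and chr5 this was so in the hindlimb library only, where by the product the intervals of chr6 and chr3 overlapped. Of the macrochromosomes chr1 had 0.932 and 0.923, chr2 had 0.869 and 0.863, chr4 had 0.857 and 0.852, chr5 had 0.831 and 0.823, and chr3 had 0.827 and 0.818. By the fit chr1 to chr5 ran between 0.854 and 0.900 in the hindlimb and between 0.845 and 0.896 in the forelimb library, with chr4 the highest and chr3 the lowest in both.

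The contacts of microchromosomes with chr1 to chr5 were not even along those chromosomes. For every 1-Mb bin the expectation was the number of its ends between chromosomes times the share of microchromosomes among the ends of all other chromosomes. Since the class ratios used another expectation, the values here compare bins with each other and are not on the scale of those ratios. Bins within 5 Mb of a chromosome end had a ratio of 0.952 (281333 pairs) in the hindlimb and 0.943 (238359 pairs) in the forelimb library. From 5 to 10 Mb the ratio was 0.791 and 0.784, from 10 to 20 Mb 0.802 and 0.795, and from 20 to 40 Mb 0.791 and 0.783. Beyond 40 Mb, where most bins belong to chr1 and chr2, it was higher again at 0.857 and 0.852.

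Each of the 5 chromosomes had more contacts with microchromosomes in its outer 5 Mb than in the next 5 Mb. Chr1 stood at 0.960 in the hindlimb and 0.946 in the forelimb library within 5 Mb and at 0.731 and 0.717 from 5 to 10 Mb. Chr4 had 1.05 and 1.06 against 0.781 and 0.776, and chr5 had 1.00 and 0.998 against 0.871 and 0.866. Chr2 had 0.806 and 0.788 against 0.700 and 0.683. The contrast was smallest on chr3, both as a difference and as a fold, with 0.906 and 0.892 against 0.844 and 0.846.

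**Figure D4:**
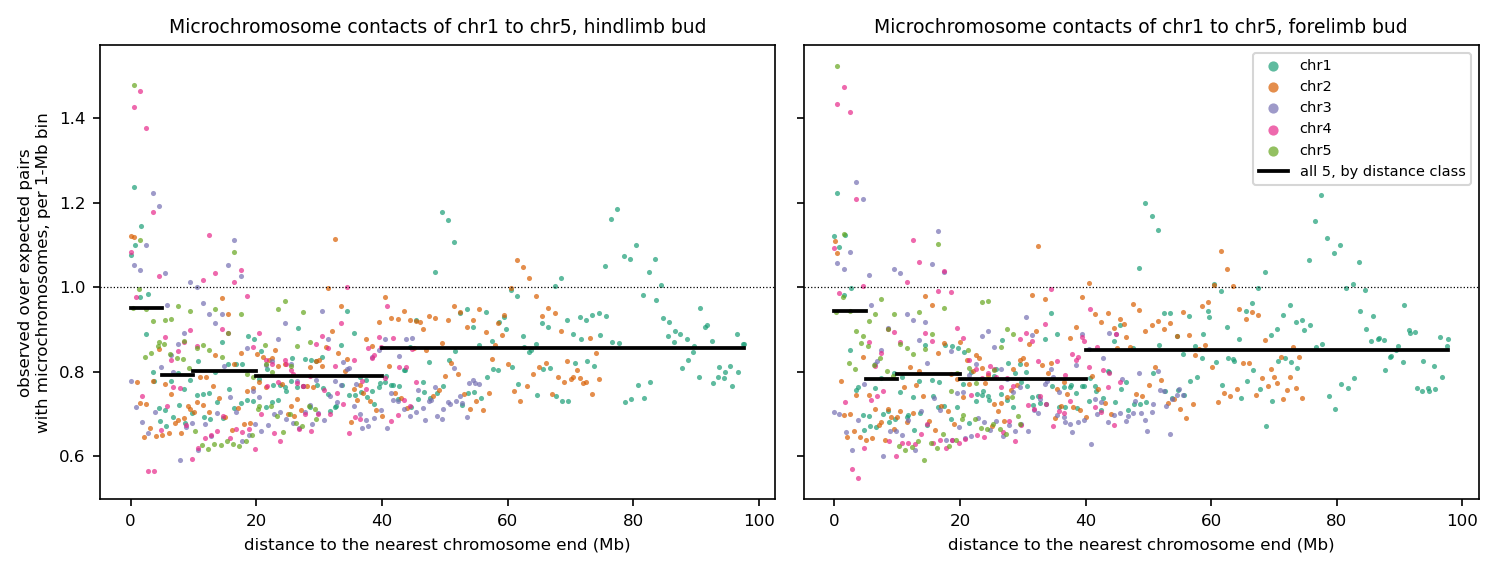
Each point is a 1-Mb bin of chr1 to chr5 with its observed over expected pairs with microchromosomes against the distance to the nearest chromosome end in Mb, for the hindlimb bud library (left) and the forelimb bud library (right). Black lines give the ratio over all bins of a distance class, 0.952 and 0.943 within 5 Mb and 0.791 and 0.784 from 5 to 10 Mb. The highest bins lie at the ends of chr4 and chr5, and bins of chr1 near 50 and 80 Mb from an end also lie above 1.

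Among the 611 bins, 47 were above 1 in both libraries, a mark that is not the level without preference on this scale. Of these, 19 were among the 53 bins within 5 Mb of an end, and 28 lay farther in, 13 of them on chr1. The bins were ordered alike in both libraries (Spearman 0.982 over the 611 bins). The highest was the first Mb of chr5 (chr5:1-1000000, galGal5), with 11301 hindlimb pairs for 7639 expected (ratio 1.48) and 9813 forelimb pairs for 6440 expected (1.52). The next 3 were the first 3 Mb of chr4, with 1.46 and 1.47 for chr4:1000001-2000000, 1.43 in both libraries for chr4:1-1000000 and 1.38 and 1.42 for chr4:2000001-3000000. The fifth was chr3:3000001-4000000, at 1.224 and 1.2503.

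The lowest bins lay toward the other end of the same chromosomes. Chr4:87000001-88000000 stood at 0.565 in the hindlimb and 0.548 in the forelimb library, and chr4:88000001-89000000 at 0.565 and 0.570, although both lie within 5 Mb of the end of chr4. The others were chr3:103000001-104000000 (0.592 and 0.601), chr4:81000001-82000000 (0.593 and 0.602) and chr5:47000001-48000000 (0.618 and 0.622). Nearness to an end was thus not enough for a high value.

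On chr4 the values changed along the whole chromosome. Its short arm, at the start of the sequence, is a separate small chromosome in most other birds. The first 10 Mb had 65923 hindlimb pairs with microchromosomes, a ratio of 1.14 (1.13 to 1.15), and 57148 forelimb pairs, a ratio of 1.15 (1.14 to 1.16). From 10 to 20 Mb the ratio was 0.984 in both libraries. From 20 to 60 Mb it stayed between 0.785 and 0.853 in the hindlimb and between 0.788 and 0.853 in the forelimb library, from 70 to 80 Mb it was 0.660 and 0.640, and the last 2 bins, from 90 Mb, had 1.00 and 1.01.

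The ends of the microchromosomes themselves also had more contacts with other microchromosomes. Each was divided into 10 equal parts, and the expectation was the number of ends of a part in pairs between chromosomes times the share of the other microchromosomes among the ends of all other chromosomes. This differs from the expectation of the class ratios above, so the values compare parts with each other and not with those ratios. On this scale the first part had a ratio of 1.34 in the hindlimb and 1.36 in the forelimb library, and the last part had 1.33 and 1.35. The lowest was the third part with 1.13 and 1.14, and the parts in between ran from 1.15 to 1.24 and from 1.15 to 1.27. The ratio was thus above 1 in all 10 parts and highest in the first and the last.

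The parts were then compared as pairs, with an expectation from the ends that each part of each microchromosome had in pairs between microchromosomes. Pairs with both mates in an end part stood at 1.22 (42596 pairs) in the hindlimb and 1.21 (35949 pairs) in the forelimb library. Pairs of an end part with one of the 2 middle parts stood at 0.909 and 0.913, and pairs of middle parts with each other at 1.04 in both. The first part of one with the first of another had 1.26 (1.237 to 1.287) in the hindlimb library and 8336 pairs for 6669 expected (1.223 to 1.277) in the forelimb library, the last with the last had 1.217 and 1.202, and the first with the last 1.201 (1.185 to 1.218) and 1.193 (1.175 to 1.211). The intervals of first with first and of first with last did not overlap in either library. Those of last with last (1.196 to 1.240 in the hindlimb and 1.178 to 1.226 in the forelimb library) overlapped both of the others.

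**Figure D5:**
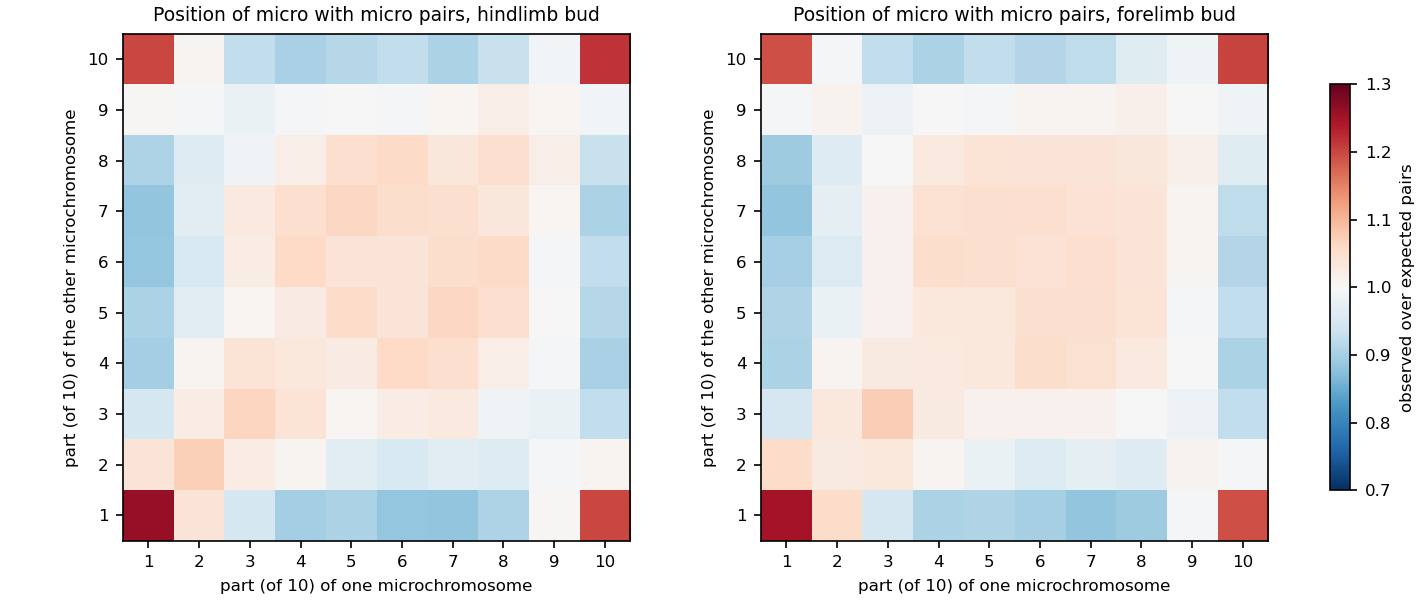
Observed over expected pairs between 2 microchromosomes by the position of the mates in each, in 10 equal parts from the start (1) to the end (10) of the sequence, for the hindlimb bud library (left) and the forelimb bud library (right). The corners, where both mates are in an end part, lie between 1.201 and 1.262 in the hindlimb library and at 1.193 or more in the forelimb library, and the middles of the edges lie below 1.

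The same preference of ends for ends held between microchromosomes and macrochromosomes. Given the number of pairs between each microchromosome and each of chr1 to chr5, pairs joining an end part of a microchromosome to the outer 5 Mb of a macrochromosome stood at 1.13 (1.12 to 1.14, 61035 pairs) in the hindlimb and 1.12 (1.11 to 1.13, 51393 pairs) in the forelimb library. End parts with the inner parts of chr1 to chr5 stood at 0.981 and 0.982. The other parts met the outer 5 Mb at 0.969 and 0.970 and the inner parts at 1.00 in both libraries. The expectation keeps the totals of end and inner parts on both sides, so these further ratios follow from the first and are not separate results.

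The libraries differed by little. The ratio between microchromosomes was 1.30% lower in the hindlimb than in the forelimb library, a log2 ratio of -0.019 (-0.024 to -0.014). The 4 sequencing lanes of a library, which are repeated readings of it, gave 1.150 to 1.155 in the hindlimb and 1.165 to 1.170 in the forelimb library and did not overlap. With chr1 to chr5 the log2 ratio was 0.012 (0.0093 to 0.015), with lanes from 0.872 to 0.874 and from 0.864 to 0.867, again without overlap. With chr6 and chr8 to chr10 it was -0.0079 (-0.013 to -0.0025), with lanes from 0.901 to 0.907 and from 0.908 to 0.910.

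By single combinations, the interval of the hindlimb over forelimb ratio left out 1 on the lower side for 19 of 178 combinations of microchromosomes and on the higher side for 1. Over all 429 combinations 5.59% were lower and 5.36% higher in the hindlimb library. Of microchromosomes with chr1 to chr5, 16 of 105 were higher in the hindlimb library and 0 lower. Since the ratios are scaled to the totals within each library, lower values between microchromosomes in part impose higher ones with other partners. This holds for the pooled classes above as well. Among the 20 combinations of microchromosomes whose interval left out 1, the 3 widest differences involved chr16: with chr23 it had 112 hindlimb pairs (ratio 1.49) and 143 forelimb pairs (2.33), with chr28 it had 97 (1.67) and 111 (2.32), and with chr27 it had 125 (2.18) and 138 (2.94). These 3 were named after their values were seen. With 1 library each, differences between limb buds and between library preparations cannot be told apart.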

How the data were processed

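CHi-C was measured in 1 whole hindlimb bud and 1 whole forelimb bud library at HH20. Per the study's methods, the authors trimmed adapters with cutadapt, used HiCUP with Bowtie2 to map pairs to the DpnII fragments of galGal5 and keep valid ones, and placed each mate at the middle of its fragment. HiCUP removes copies of the same ligation product, and probes can favour some untargeted fragments. The deposited valid-pair lists give for each mate a mapping quality, a score. The deposited contact matrices were not used here.

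Pairs were counted with awk and analysed with Python 3.11.15, numpy 2.4.6, pandas 2.3.3 and scipy 1.17.1, with figures by matplotlib 3.10.9. Chromosome ends were taken as the last fragment seen. Class ratios are sums of observed over sums of expected pairs, with exact Poisson intervals, and ratios of counts have exact binomial intervals at 95%. Read pairs were taken as independent. The fitted expectation adjusts 1 factor per chromosome over 3000 iterations. Ratios and fit were checked on simulated pairs of 496 chromosome combinations. A planted 1.5-fold preference between microchromosomes gave 1.33 by the fit and 1.20 by the product for microchromosomes over chr1 to chr5. Both expectations thus take up part of a preference, and the ratios are not its fold.

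Combinations needed an expectation of 20 in each library. Named were the 10 highest and 5 lowest combinations of microchromosomes with an expectation of 50 or more, by the library nearer to 1, and the 5 highest and 5 lowest 1-Mb bins of chr1 to chr5 with an expectation of 100 or more. Members, lists and tests were chosen with earlier results of these data known. Alternatives were another expectation, mapping quality, repeated fragment pairs, chromosomes, bins of extreme coverage, lanes, folds and bin sizes. No sequences, GC content or gene density were used, since no galGal5 genome was at hand.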

Additional observations from a re-analysis of the deposited data

Results flagged for a closer look

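LGE64, a linkage group that is not placed on a numbered chromosome, was left out of the comparisons and was looked up after the other values had been seen. Of its pairs with kept chromosomes, 39.4% (38.4 to 40.5, exact binomial 95% interval, 3430 of 8699 pairs) were with microchromosomes in the hindlimb and 39.7% (38.6 to 40.8, 2887 of 7273 pairs) in the forelimb library. Microchromosomes made up 27.4% and 27.1% of the ends between chromosomes, so that LGE64 met them 1.44 and 1.46 times as often as their share. ChrW, looked up in the same way, had 27.0% and 26.0%, or 0.986 and 0.960 times that share. Neither library has a replicate, and the origin of the LGE64 share was not tested.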

How the results depend on the processing

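Values are given for microchromosomes with each other, then with chr6 and chr8 to chr10, then with chr1 to chr5, hindlimb before forelimb. The expectation mattered most. The fit gave 1.30 and 1.32, 1.004 and 1.011 (the other side of 1), and 0.883 and 0.876, with microchromosomes over chr1 to chr5 at 1.48 and 1.51 and 74 combinations at 1.5-fold. A product of all ends, within chromosomes included, gave 1.98 and 2.02, 1.40 and 1.43 (the other side of 1), and 0.963 and 0.959. Microchromosomes over chr1 to chr5 then stood at 2.05 and 2.11. The log2 ratios of hindlimb over forelimb were -0.032, -0.027 and 0.0074. At 1.5-fold 158 combinations of microchromosomes passed. Other combinations were not counted under this product, so the 158 cannot be set against a share of all combinations. The ends of this product include those paired with chr7 and contigs. By its construction this product raises chromosomes with a larger share of pairs to others. With mapping qualities of 40 or more, microchromosomes stood at 1.147 and 1.162 with each other, 0.875 and 0.868 with chr1 to chr5, and 1.31 and 1.34 for microchromosomes over chr1 to chr5. Without chr16 and chr30 to chr33 these were 1.1495 and 1.165, 0.874 and 0.867, and 1.315 and 1.343. Without chrZ they were 1.12 and 1.13, 0.867 and 0.860, and 1.29 and 1.32, and 0.888 and 0.892 with chr6 and chr8 to chr10. The lane farthest from all lanes gave 0.907 with chr6 and chr8 to chr10 in the hindlimb (log2 ratio -0.0022), 0.867 with chr1 to chr5 in the forelimb, and 1.317 and 1.344 for microchromosomes over chr1 to chr5. Leaving out each microchromosome in turn gave 1.144 to 1.198 and 1.158 to 1.216 with each other, 0.893 to 0.908 and 0.898 to 0.914 with chr6 and chr8 to chr10, 0.861 to 0.878 and 0.853 to 0.871 with chr1 to chr5, and 1.30 to 1.39 and 1.33 to 1.43 for microchromosomes over chr1 to chr5, with the extremes without chr12, chr19 or chr26. At the lower fold tried, by the product, 81 of 178 combinations of microchromosomes passed (45.5%). At this fold 2 of 10 combinations of chr1 to chr5 with each other passed as well, so it was not limited to microchromosomes. At 2-fold 17 of 178 combinations of microchromosomes passed (9.55%), and no other tested combination did. With 5 position bins, pairs of end bins stood at 1.07 and 1.06 and end with middle bins at 0.943 and 0.948, where an end bin is wider by construction. Without a limit on mapping quality, with each pair of fragments counted once (0.0139% and 0.0165% were repeats), or without 100-kb bins of extreme coverage, every class ratio stayed within its counting interval, as did the values by distance to chromosome ends with 500-kb bins or without bins of extreme coverage. Apart from the causes named, the cause was not tested. No paired analysis was possible because each limb bud has 1 library. Depth limits chr16 and chr30 to chr32, whose combinations with other short chromosomes hold few pairs.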
